A study of Mus musculus with 12 samples.

Results

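The genes described here make cholesterol and fatty acids, or set how much of those enzymes a cell makes. The list holds 32 genes, named for their place in these pathways, and 31 of them had a probe set annotated to the gene alone on the array. It was chosen with earlier results of these data known, so shares set beside those of all genes are descriptive. Acat2 was not analysed here. Each gene was read from its brightest such probe set, the one with the highest mean over the 12 arrays, and the 31 genes are part of 18194 genes so named. All 31 found genes passed the filter on low signal (log2 1.45), which left 12673 genes tested. They divide into 17 enzymes of the sterol branch, 6 regulators and carriers, and 8 enzymes of the fatty acid branch.

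The arrays were Affymetrix whole-genome mouse chips, hybridised with amplified total RNA of I/11 cells, an expanding mouse pro-erythroblast line grown with erythropoietin, stem cell factor and dexamethasone. There were 3 stable lentiviral lines, made in a puromycin-selectable pLKO vector. The scr line carried a scrambled shRNA, and the sh14 and sh133 lines each carried a hairpin against Plcg1, the phospholipase that releases calcium and diacylglycerol signals below the erythropoietin receptor. Each line was read at 1, 6, 12 and 22 h on 1 array per time, so a line has 4 arrays and no time point of a line is replicated. The labels do not say what the hours count from or whether the arrays come from separate cultures, and p-values therefore measure only the spread between these arrays. No label says whether a line is 1 clone or a pool. The study compared erythroid gene expression with and without Plcg1 knockdown over this course.

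Cholesterol is built from acetyl units through mevalonate, isoprenoids, squalene and a chain of sterols, and fatty acids are built from malonyl units and then elongated and desaturated. The enzymes of both branches are known targets of the SREBP transcription factors, encoded by Srebf1 and Srebf2. When membrane sterol is low, the escort protein Scap carries the SREBP precursors out of the endoplasmic reticulum to be cut and released, and the Insig proteins hold Scap back when sterol is plentiful. Erythroblasts build and then remodel a large amount of membrane while they divide and mature.

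The array titles carry 2 date strings, on 6 arrays each, and what these record is not stated in the labels. The 2 sets are treated as array runs. In run 1 are the 4 sh14 arrays together with the 6 and 12 h arrays of sh133, and in run 2 are the 4 scr arrays together with sh133's arrays of 1 and 22 h. No time point therefore sets sh14 against scr within a run. The limma model held line, time and run. Since sh133 is the one line in both runs, the run term and a time course of sh133's own cannot be told apart. The run term was larger for these enzymes than for genes at large: its median was 0.67 (log2) over the 17 sterol enzymes and 0.47 over the 8 fatty acid enzymes, against 0.003 over all genes tested, with none of the 31 members past the adjusted threshold (0.0% of all genes; 17 of 31 members at an unadjusted p under 0.05, and 5.48% of all genes). Leaving out the run term raised the share of all genes called between lines, so calls without it are given below beside that share.

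Plcg1 itself was read at log2 4.74, 4.45, 4.61 and 4.31 in scr at 1, 6, 12 and 22 h. It was read at 4.16, 3.86, 4.27 and 4.30 in sh14 and at 4.53, 4.35, 4.37 and 4.39 in sh133. The difference from scr was -0.36 ± 0.22 (SE) for sh14 and -0.11 ± 0.14 for sh133, and neither passed limma (adjusted p = 0.456 and 0.767). Erythroid markers (7 of 8 listed genes with a probe set) summed to 51.7 to 57.9 log2 units in scr, 48.0 to 55.0 in sh14 and 52.4 to 57.7 in sh133, and none was below its array's median on all 4 arrays of a line. Klf1, Epor, Alas2 and Slc4a1 were lower in sh14 than in scr at each time. Gata1 and Kit were lower at 1, 6 and 12 h, and Tfrc at 12 and 22 h. Alas2 was at 3.39, 3.90, 4.31 and 5.84 in sh14 against 5.02, 4.96, 5.40 and 6.34 in scr. The part of these erythroid genes in the sh14 results below was not tested. The mast cell and basophil list (6 genes summed, 5 of them past the filter) summed to 14.6 to 19.4 in scr, 20.7 to 24.4 in sh14 and 13.7 to 17.9 in sh133. The sums did not overlap between sh14 and the other lines, but the genes went different ways. Fcer1a, Ms4a2, Cpa3 and Mitf were higher in sh14 than in scr at each time, and Mcpt8 was low in all lines. Hdc, the brightest, was lower in sh14 at each time (8.31, 7.66, 7.14 and 5.73 against 9.47, 8.69, 7.49 and 5.97 in scr). The part of this list in the sh14 results below was not tested. In bulk RNA, fewer cells of a type and less RNA per cell cannot be told apart. The megakaryocyte list (4 of 5 genes) summed to 14.1 to 15.6 in scr, 17.0 to 18.4 in sh14 and 16.3 to 19.3 in sh133, so both hairpin lines lay above scr. Pf4 was higher than in scr at each time in both hairpin lines, and Itga2b in sh14. In sh133 Itga2b was below scr at 1 h (6.11 against 6.26), and Gp1bb and Gp9 lay between 2.28 and 2.94 on all arrays. The part of this list was not tested either. The macrophage and hepatocyte lists overlapped between all lines. The adipocyte markers Adipoq, Cidec and Lep were below the array median on every array.

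Promoters are shown for 6 members whose signals are described below: the first enzyme of the branch with a known sterol response element, an early kinase, Idi1, Tm7sf2 and Insig1, which each stood apart in 1 hairpin line, and fatty acid synthase. Srebf1 and Fads1 also stood apart in 1 hairpin line and are not shown. Each window is the 250 bases before the gene's start in RefSeq (GRCm38.p6), read 5′ to 3′ on the gene's strand. Capitals mark CCAAT, the box bound by NF-Y, on either strand (ATTGG on the other), and in Hmgcs1 also a match to the sterol response element TCACNCCAC. The windows are Hmgcs1 at chr13:119690101-119690350 on the plus strand, Mvk at chr5:114444019-114444268 (plus), Idi1 at chr13:8885356-8885605 (plus), Tm7sf2 at chr19:6067851-6068100 (minus), Insig1 at chr5:28071162-28071411 (plus) and Fasn at chr11:120824548-120824797 (minus).
Hmgcs1: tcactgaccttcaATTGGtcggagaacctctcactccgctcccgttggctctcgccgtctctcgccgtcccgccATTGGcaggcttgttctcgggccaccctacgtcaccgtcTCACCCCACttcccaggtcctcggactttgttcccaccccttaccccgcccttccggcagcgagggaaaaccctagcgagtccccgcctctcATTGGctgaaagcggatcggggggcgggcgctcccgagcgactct
Mvk: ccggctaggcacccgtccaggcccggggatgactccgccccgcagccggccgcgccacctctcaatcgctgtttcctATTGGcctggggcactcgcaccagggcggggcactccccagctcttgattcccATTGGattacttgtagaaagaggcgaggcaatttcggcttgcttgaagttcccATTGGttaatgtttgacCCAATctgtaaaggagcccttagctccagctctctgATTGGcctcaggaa
Idi1: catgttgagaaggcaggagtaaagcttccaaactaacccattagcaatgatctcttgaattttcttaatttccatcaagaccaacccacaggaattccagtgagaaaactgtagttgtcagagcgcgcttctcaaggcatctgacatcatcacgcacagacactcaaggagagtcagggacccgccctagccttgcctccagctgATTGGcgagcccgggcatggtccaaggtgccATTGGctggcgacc
Tm7sf2: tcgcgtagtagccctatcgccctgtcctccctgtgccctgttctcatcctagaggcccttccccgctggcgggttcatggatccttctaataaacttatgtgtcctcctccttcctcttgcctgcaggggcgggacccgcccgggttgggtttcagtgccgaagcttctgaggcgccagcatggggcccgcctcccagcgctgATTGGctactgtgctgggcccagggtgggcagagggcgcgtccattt
Insig1: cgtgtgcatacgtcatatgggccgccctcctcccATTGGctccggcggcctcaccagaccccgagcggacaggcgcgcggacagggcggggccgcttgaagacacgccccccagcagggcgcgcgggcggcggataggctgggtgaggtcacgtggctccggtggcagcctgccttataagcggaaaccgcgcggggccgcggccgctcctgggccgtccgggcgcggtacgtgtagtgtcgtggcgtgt
Fasn: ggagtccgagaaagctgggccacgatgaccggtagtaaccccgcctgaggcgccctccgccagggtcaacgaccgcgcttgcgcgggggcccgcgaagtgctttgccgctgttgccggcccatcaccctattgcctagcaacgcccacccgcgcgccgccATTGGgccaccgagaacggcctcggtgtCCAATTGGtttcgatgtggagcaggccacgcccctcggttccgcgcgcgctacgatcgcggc

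Of the 32 listed genes, 25 had a RefSeq window, and motifs were searched in the 250 bases before the start. The CCAAT box, searched on both strands, was in the windows of 14 of 15 sterol enzyme genes (93.3%), 4 of 5 regulators (80.0%) and 1 of 5 fatty acid enzyme genes (20.0%), against 37.5% of all 27025 genes with a window. Hmgcs1 held 3 of them, the nearest beginning 45 bases before the start, and Mvk held 5. The 3 boxes counted in Fasn include a pair that overlap in 1 stretch. The GC box GGGCGG was in 93.3% of the sterol enzyme genes against 35.4% of all genes, and the E box CACGTG in 20.0% against 6.86%. The full sterol response element was found in Hmgcs1 and in no other member, against 1.22% of all genes. These are matches of letters in these windows and say nothing about binding in these cells.

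**Figure D1:**
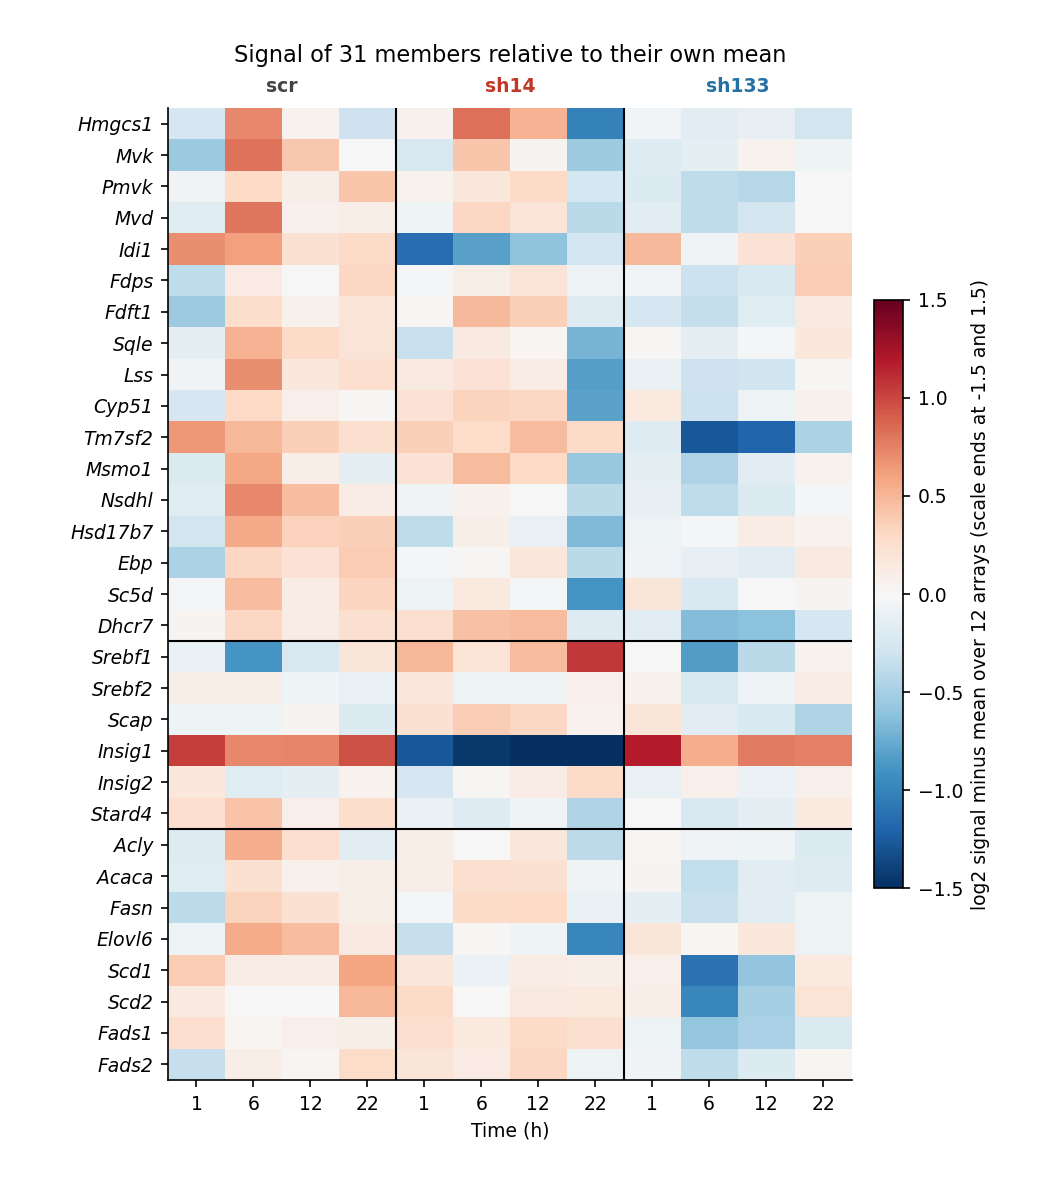
Heat map of the 31 members (rows, in the order sterol enzymes, regulators and carrier, fatty acid enzymes) on the 12 arrays (columns, by line and hours). Colour is the log2 signal minus the gene's own mean over the 12 arrays, and it is clipped at -1.5 and 1.5. Most sterol enzymes are red in scr at 6 h and blue in sh14 at 22 h, while Insig1 is blue in every sh14 array and Tm7sf2 is bluest in sh133 at 6 and 12 h.

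Most sterol enzymes had their highest signal at 6 h in both scr and sh14, while the hour of their lowest signal differed between these lines. In scr, 12 of the 17 had their highest signal at 6 h (19.7% of all genes tested) and 14 had their lowest at 1 h (33.6%). In sh14, 11 of the 17 were again highest at 6 h (24.5%), and 15 were lowest at 22 h (32.5%). The genes highest at 6 h in sh14 were also highest at 6 h in scr, and Dhcr7 was highest then in scr alone. In sh133 no sterol enzyme was highest at 6 h (22.3% of all genes) and 12 were lowest then (18.4%), but its 6 h array carries another title date than its 1 h array.

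Hmgcs1, which joins acetoacetyl and acetyl units at the entry of the branch, had a log2 signal of 8.94, 9.92, 9.25 and 8.89 in scr at 1, 6, 12 and 22 h. In sh14 it was 9.27, 10.03, 9.73 and 8.19, and in sh133 9.16, 9.03, 9.08 and 8.93. The scr and sh14 lines thus peaked at 6 h while sh133 stayed within a range narrower than either, and the 3 lines overlapped. The 3 next brightest of its 5 probe sets gave the same 6 h peak in scr, with differences from 1 h of 1.23, 1.23 and 1.44, and the dimmest gave -1.45.

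Mvk, the mevalonate kinase, had the largest early step of the branch in scr. Its signal was 4.44, 5.81, 5.39 and 4.99 in scr, 4.75, 5.41, 5.03 and 4.46 in sh14, and 4.80, 4.85, 5.04 and 4.93 in sh133. The lowest and the highest array of the 12 were both scr arrays, at 1 h and 6 h. Sqle, the squalene epoxidase that puts the first oxygen on squalene, was at 7.78, 8.46, 8.22 and 8.13 in scr, 7.60, 8.07, 7.96 and 7.24 in sh14, and 7.96, 7.81, 7.90 and 8.09 in sh133. Its sh14 array at 22 h was the lowest of the 12.

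Across the branch, the scr difference between 6 h and 1 h had a median of 0.76 (log2) and was at least 1.5-fold upward for 10 of 17 sterol enzymes, against 4.26% of all genes. The largest were 1.37 for Mvk, 0.99 for Mvd, 0.98 for Hmgcs1 and 0.90 for Nsdhl. Idi1 (-0.08) and Tm7sf2 (-0.16) had the only 2 negative values. In sh14 the same difference had a median of 0.22, with 2 of 17 at least 1.5-fold higher (3.41% of all genes), Hmgcs1 and Mvk. In sh133 it had a median of -0.21, with none at least 1.5-fold higher (5.02%), between arrays of different runs. These steps compare single arrays, and the difference between the lines' steps at 6 h was not tested.

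In the model with run, 2 of the 31 members passed limma for 6 h against 1 h, where 4.86% of all genes did. The 1 and 6 h arrays of sh133 lie in different runs, so the run term takes up much of that line's step. The estimates therefore rest mainly on scr and sh14. They were a rise of 0.91 ± 0.19 for Mvk (SE; adjusted p = 0.0242) and a fall of 0.59 ± 0.13 for Srebf1 (adjusted p = 0.0336). In sh133 the Mvk signal was 4.80 at 1 h and 4.85 at 6 h. Without the run term the Mvk value was 0.69 with an adjusted p of 0.0677, and Srebf1 kept its call. Leaving out 1 array lost the Mvk call for 5 arrays (scr at 1 and 6 h, sh14 at 6 h, sh133 at 1 and 22 h) and the Srebf1 call for 9 of 12. Of the 17 sterol enzymes, 16 had a positive estimate, with a median of 0.44 against 0.03 over all genes, and 8 had an unadjusted p under 0.05 (18.9% of all genes). The median without the run term was 0.24, with 14 positive and 2 at an unadjusted p under 0.05, and 1 of the 31 members was called (7.46% of all genes). Hmgcs1 was 0.84 ± 0.23 higher (adjusted p = 0.0720) and Sqle 0.55 ± 0.15 (adjusted p = 0.0706), neither past the threshold. The count of members called was 0 when scr at 6 h was left out and 8 when scr at 22 h was left out, which are the ends of the range over the 12 arrays. It was also 0 without scr at 1 h, sh14 at 6 h or sh133 at 1 or 22 h. Of the 12673 genes tested, 616 were called in the full fit, 97 without scr at 6 h and 728 without scr at 22 h. Those without scr at 1 h, sh14 at 6 h, sh133 at 1 h and sh133 at 22 h numbered 311, 188, 417 and 417.

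From 12 h to 22 h the lines parted. In sh14, 16 of 17 sterol enzymes were lower at 22 h than at 12 h, with a median difference of -0.58, and 8 were at least 1.5-fold lower (3.36% of all genes). Hmgcs1 differed by -1.54, Cyp51, the lanosterol demethylase, by -1.12, and Lss, the lanosterol synthase, by -0.94. Both Lss (7.07, 7.15, 7.05 and 6.11) and Cyp51 (6.81, 6.93, 6.91 and 5.80) stayed level in sh14 until 12 h and were low on the last array. In scr the same step had a median of 0.03, and in sh133 of 0.21 across runs, with none of the 17 at least 1.5-fold lower in either line (2.6% and 1.61% of all genes). The sh14 array at 22 h was the lowest of all 12 for 9 of 17 sterol enzymes (12.3% of all genes), and the scr array at 6 h the highest for 8 (5.82%).

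No member passed limma for 22 h against 12 h (1.25% of all genes did), with 11 of 31 at an unadjusted p under 0.05 (17.2% of all genes). The 12 and 22 h arrays of sh133 lie in different runs, so with the run term this step too rests mainly on scr and sh14. Hmgcs1 came nearest, at -0.98 ± 0.23 (adjusted p = 0.0709). Its signals at 12 and 22 h were 9.25 and 8.89 in scr, 9.73 and 8.19 in sh14, and 9.08 and 8.93 in sh133. None passed for 22 h against 1 h either, where 18.1% of all genes did and 5 members had an unadjusted p under 0.05 (31.8% of all genes). None passed for 12 h against 6 h (0.00789% of all genes), with 1 member at an unadjusted p under 0.05 (5.29% of all genes). The model of knockdown by time, which compares the slope of both hairpin lines on log2 hours with that of scr, called none of the 31 (0.0316% of all genes). At an unadjusted p under 0.05 were 5 of the 31, near the share of all genes (16.2%). The sterol enzymes had a median slope difference of -0.09 log2 per doubling of hours, and 15 of 17 were negative. For sh14's slope against that of scr, each line lying within 1 run, none of the 31 was called (2.79% of all genes). At an unadjusted p under 0.05 were 13 of the 31 (21.9% of all genes), 9 of them sterol enzymes. The sterol enzymes had a median of -0.15 there, with 15 of 17 negative. The test of sh14's slope against that of sh133 called none as well (0.0158% of all genes), with 5 at an unadjusted p under 0.05 (12.4% of all genes). With 3 residual degrees of freedom this last test had little reach: on simulated data it recovered 1.67% of 2-fold and 61.3% of 4-fold slope changes.

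**Figure D2:**
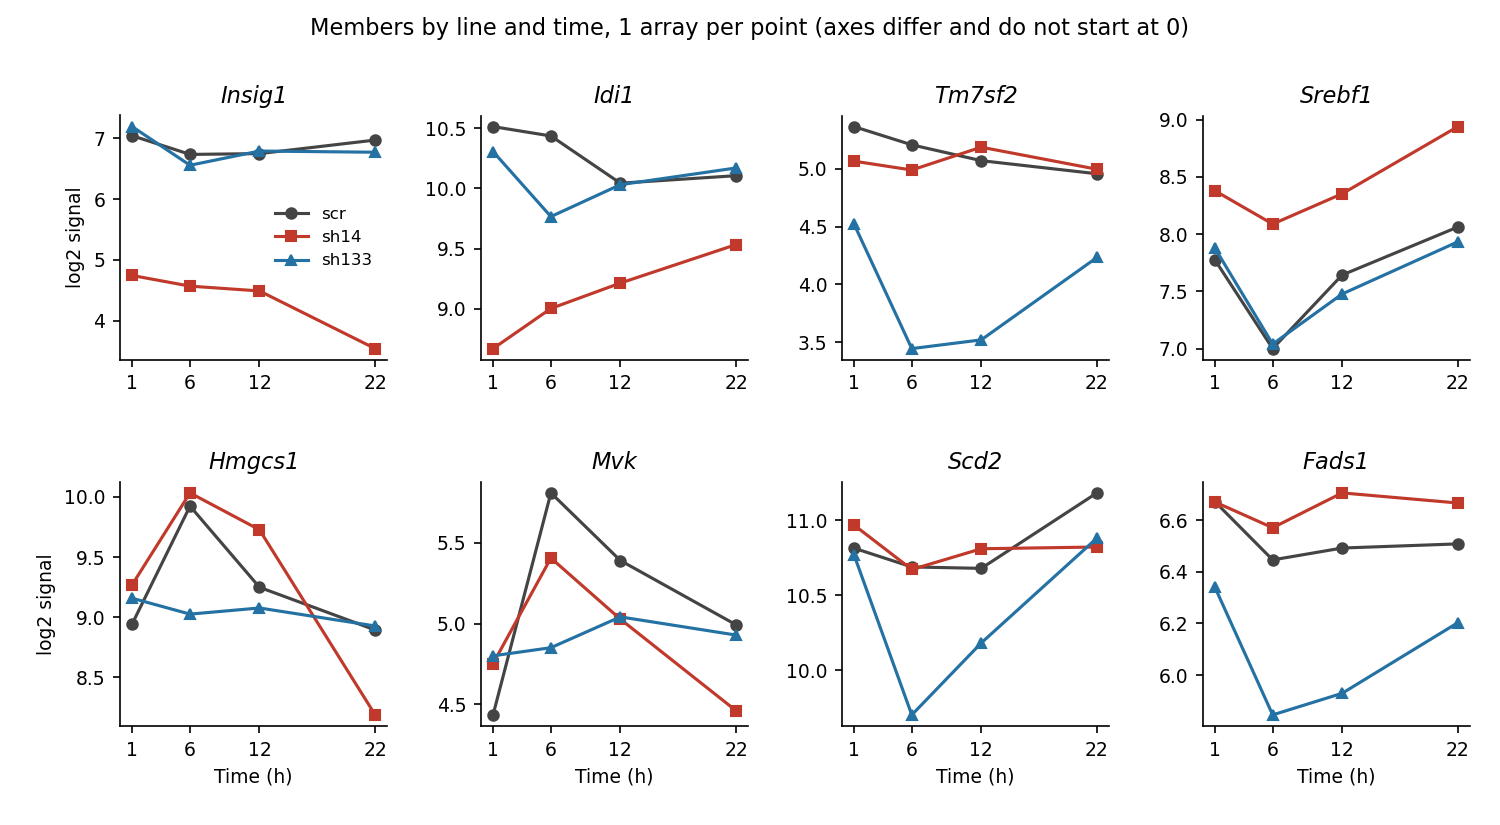
Log2 signal (vertical axis, scaled for each gene) against hours (horizontal axis) for 8 members in scr, sh14 and sh133, with 1 array per point and no error bar because no time point is replicated. The sh14 line of Insig1 lies between 3.54 and 4.74, below every point of the other lines, and Hmgcs1 peaks at 6 h in scr and sh14 but not in sh133.

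Insig1, which retains Scap in the endoplasmic reticulum and is itself a known SREBP target, showed the largest line difference of the 31 members. Its signal was 7.05, 6.74, 6.75 and 6.97 in scr, 4.74, 4.57, 4.49 and 3.54 in sh14, and 7.20, 6.56, 6.79 and 6.77 in sh133. Every sh14 array was far below every scr and sh133 array, and the scr and sh133 arrays overlapped. Insig1 was lower in sh14 than in scr with a log2 difference of -2.17 ± 0.36 (SE; 4.51-fold; adjusted p = 0.0129, limma), and the difference without the run term was -2.54. It was -2.31 ± 0.24 relative to sh133 (adjusted p = 0.00029), and -1.99 and -2.31 at 6 and 12 h, where both lines share a run. Against scr the call was lost when sh133 at 1, 6 or 12 h was left out, with adjusted p up to 0.0940, and against sh133 it was kept in all 12 such fits. The sh133 line differed from scr by 0.14 ± 0.24 (adjusted p = 0.840).

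Insig1 is read by 1 probe set here, so no other probe set bears on it. Of its 12 nearest tested neighbours on chromosome 5, 6 on each side, 4 had a mean below 0 for sh14 minus scr over the matched times. Their median was 0.11, and none was called (3.06% of all genes). Its paralog Insig2, a sterol sensor of the same kind, was between 4.48 and 5.02 on all 12 arrays and was called in no comparison.

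Srebf1, which encodes the SREBP form most tied to fatty acid synthesis, was higher in sh14. It was at 7.78, 7.00, 7.64 and 8.06 in scr, 8.38, 8.09, 8.35 and 8.94 in sh14, and 7.88, 7.04, 7.48 and 7.93 in sh133. The lowest sh14 array exceeded the highest array of either other line, which was scr at 22 h. All 3 lines were lowest at 6 h and highest at 22 h, the reverse of the sterol enzymes of scr at the early step. The sh14 line exceeded scr by 0.95 ± 0.20 (1.93-fold; adjusted p = 0.0349) and sh133 by 0.92 ± 0.13 (adjusted p = 0.00176). Against scr the call was lost in 8 of the 12 fits that left out 1 array, with differences of 0.76 to 1.13, and against sh133 in none. Without the run term it was 0.82 ± 0.10 against scr (adjusted p = 0.00016).

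Srebf2, which encodes the form most tied to sterol synthesis, did not separate the lines. It was at 6.54, 6.53, 6.37 and 6.33 in scr, 6.61, 6.37, 6.38 and 6.51 in sh14, and 6.50, 6.21, 6.38 and 6.55 in sh133, with the 3 ranges overlapping and no call in any comparison. Scap, the escort, spanned 6.06 to 6.31 in scr, 6.32 to 6.63 in sh14 and 5.82 to 6.45 in sh133. It was higher in sh14 than in sh133 by 0.51 ± 0.13 (adjusted p = 0.0224), and lost that call when probe sets were averaged or when sh14 or sh133 at 6 or 12 h was left out. Stard4, a soluble carrier of sterol between membranes, spanned 7.41 to 7.76 in scr and 6.88 to 7.26 in sh14, without overlap. It was not called in the model with run and was -0.46 ± 0.12 without it (adjusted p = 0.0164).

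Against scr, 3 of the 31 members passed in sh14 with the run term (3.06% of all genes): Insig1, Srebf1 and Tm7sf2. Without it 7 passed (Elovl6, Hsd17b7, Idi1, Insig1, Scap, Srebf1 and Stard4), a share near that of all genes without the term (23.7%), and Insig1 and Srebf1 were the 2 genes in both sets. Both hairpin lines together against scr gave none with the run term (2.18% of all genes), with 4 at an unadjusted p under 0.05 (14.7% of all genes). Without it 6 of the 31 were called (16.2% of all genes). Groups of 4 arrays that do not overlap, which need no run term but still lie in different runs, were found in sh14 against scr for Srebf1 and Scap upward (9.24% of all genes) and for Idi1, Insig1 and Stard4 downward (8.42%).

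Idi1, the isomerase that interconverts the isoprenoid building blocks, was low on every sh14 array. It was at 10.51, 10.43, 10.04 and 10.11 in scr, 8.67, 9.00, 9.21 and 9.53 in sh14, and 10.31, 9.77, 10.03 and 10.17 in sh133. All 4 sh14 arrays were below all 8 others, the gap to scr narrowed from -1.84 at 1 h to -0.57 at 22 h, and Idi1 was the only sterol enzyme with its highest sh14 signal at 22 h. Its other probe set was also lower in sh14 than in both lines at every matched time, with 7.97, 7.83, 8.25 and 8.58 in sh14 against 8.80, 9.36, 8.82 and 8.73 in scr and 8.56, 8.77, 8.96 and 8.87 in sh133. On that probe set the lines were not fully apart, since sh14 at 22 h was above sh133 at 1 h. The difference from sh133 was -0.81 ± 0.24 (adjusted p = 0.04998), a call lost in 9 of the 12 fits that left out 1 array, and within run 1 it was -0.76 at 6 h and -0.82 at 12 h. Against scr it was -0.86 ± 0.37 with the run term (adjusted p = 0.264) and -1.17 ± 0.18 without it (adjusted p = 0.00074).

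The genes around Idi1 on chromosome 13 were lower in sh14 with it. Of the 12 nearest tested neighbours, 9 had a mean matched difference from scr below 0, with a median of -0.57. Called lower were 3 of them (Dip2c, Zmynd11 and Gm10336), against 1.56% of all genes. Against sh133, 8 of the 12 were called lower (7.11% of all genes) and Akr1e1 was called higher (7.54%). The neighbours' median for sh133 minus scr was 0.06. Dip2c was the 1 neighbour called in sh133 against scr (4.91% of all genes), higher by 0.92 (adjusted p = 0.00455, limma). Its difference between the hairpin lines (-2.26) therefore holds a higher signal in sh133 as well as a lower one in sh14. None of the 12 around Insig1 was called in sh14 against scr or against sh133. Among them Ube3c was called higher in sh133 than in scr (0.58; adjusted p = 0.0381). The part of the chromosome stretch in the Idi1 result was not tested.

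**Figure D3:**
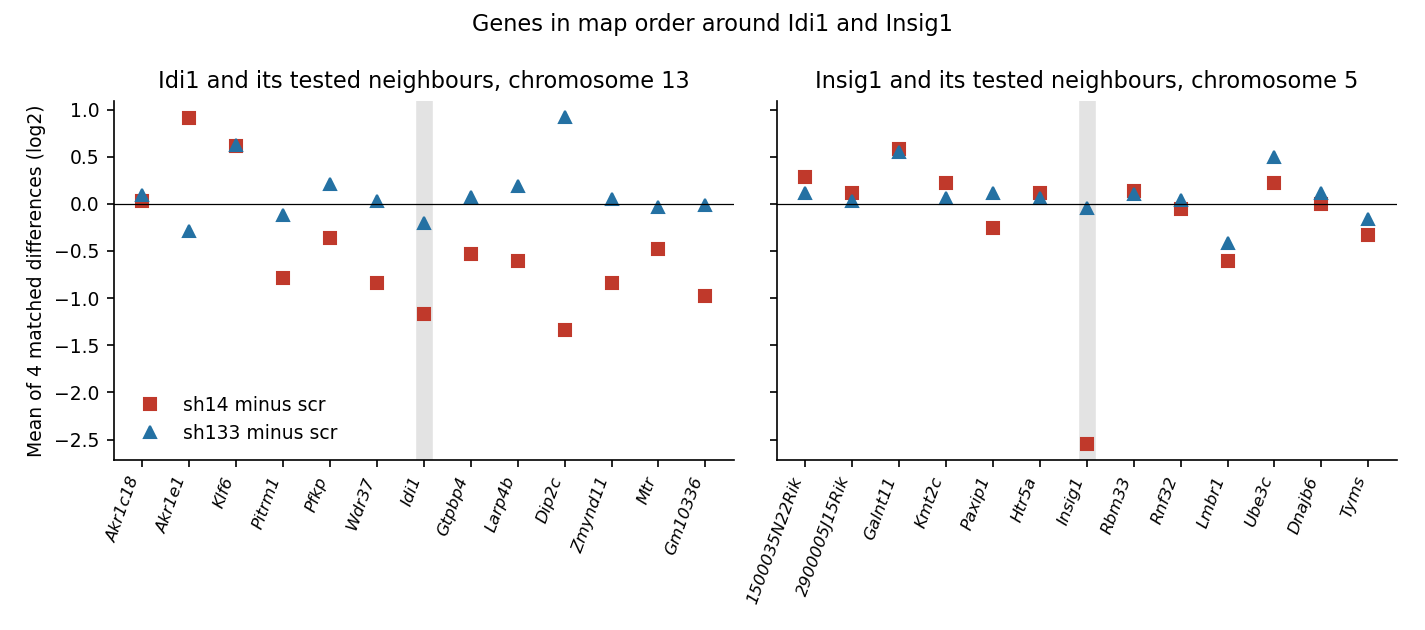
Mean over the 4 matched times of the log2 difference from scr (vertical axis) for Idi1, Insig1 and the 6 nearest tested genes on each side, in map order (horizontal axis), with squares for sh14 and triangles for sh133. Around Idi1 most sh14 squares lie below 0 with it, whereas around Insig1, at -2.54, the neighbours of sh14 scatter about a median of 0.11.

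Tm7sf2, a sterol reductase of the late pathway, was low in sh133. It was at 5.37, 5.21, 5.07 and 4.96 in scr, 5.07, 4.99, 5.19 and 5.00 in sh14, and 4.52, 3.45, 3.52 and 4.23 in sh133. All sh133 arrays were below all others, and within run 2 the differences from scr were -0.84 at 1 h and -0.72 at 22 h. It was the 1 member of 31 called in sh133 against scr (4.91% of all genes), at -0.76 ± 0.12 (adjusted p = 0.00575), a call lost without sh133 at 1 or 22 h. In sh14 the model with run placed it above scr by 0.82 ± 0.18 (adjusted p = 0.0349), although the 4 sh14 and 4 scr arrays overlapped. Without the run term that difference was -0.09 ± 0.18 (adjusted p = 0.763), so its sign depended on the term, and the call was also lost in 8 of the 12 fits that left out 1 array. Tm7sf2 was read by 1 probe set.

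Dhcr7, the reductase that makes cholesterol from its last precursor, was also low in sh133. It was at 7.02, 7.29, 7.08 and 7.22 in scr, 7.21, 7.41, 7.45 and 6.77 in sh14, and 6.81, 6.32, 6.36 and 6.72 in sh133. The sh133 arrays were below all scr arrays, and overlapped sh14 through its 22 h array alone. The sh14 line exceeded sh133 by 1.00 ± 0.16 (adjusted p = 0.00273), a call lost without sh133 at 6 h. Against scr, Dhcr7, Fads1 and Scd1 joined Tm7sf2 as calls in sh133 when the run term was left out. Arrays of sh133 lay wholly below scr for Tm7sf2, Dhcr7 and Fads1, 3 of 31 members against 5.07% of all genes.

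In the fatty acid branch, all 8 enzymes were below scr in sh133 at 6 h and at 12 h, between runs. At 6 h, 6 of the 8 were at least 1.5-fold lower (3.54% of all genes), with the largest differences for the desaturases Scd1 (-1.21) and Scd2 (-0.99). Scd2, the stearoyl desaturase with the brightest signal of the 31 members, was at 10.81, 10.69, 10.68 and 11.18 in scr, 10.97, 10.67, 10.81 and 10.82 in sh14, and 10.77, 9.70, 10.18 and 10.88 in sh133. Scd1 was at 8.19, 7.92, 7.92 and 8.40 in scr, 7.98, 7.72, 7.92 and 7.91 in sh14, and 7.88, 6.71, 7.21 and 7.95 in sh133. For both genes the lowest arrays were the 6 and 12 h arrays of sh133, which lie in run 1 with sh14. At 1 and 22 h, within run 2, sh133 was closer to scr but still below it. It was at 7.88 and 7.95 against 8.19 and 8.40 for Scd1, and at 10.77 and 10.88 against 10.81 and 11.18 for Scd2. Another Scd2 probe set was at 5.43 and 5.71 in sh133 at 6 and 12 h and at 7.17 and 7.08 at 1 and 22 h. Signals of different genes were not set against each other beyond this order, since probes differ in brightness.

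Within run 1, sh14 exceeded sh133 by 0.97 and 0.63 for Scd2 and by 1.01 and 0.71 for Scd1, at 6 and 12 h. In the model the differences were 0.76 ± 0.14 (adjusted p = 0.00678) and 0.80 ± 0.14 (adjusted p = 0.00401). Without the run term both fell short of the threshold, at 0.43 and 0.44 (adjusted p = 0.0580 and 0.0590), and each call was also lost without sh133 at 6 h.

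Fads1, the desaturase that makes arachidonic acid, was at 6.67, 6.45, 6.49 and 6.51 in scr, 6.67, 6.57, 6.71 and 6.67 in sh14, and 6.34, 5.85, 5.93 and 6.20 in sh133. All sh133 arrays were below all others. It was higher in sh14 than in sh133 by 0.73 ± 0.10 (adjusted p = 0.00121), a call kept in all 12 fits that left out 1 array and without the run term (0.57 ± 0.09).

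Fasn, the fatty acid synthase, followed the early step of the sterol enzymes in scr. It was at 7.21, 7.93, 7.82 and 7.68 in scr, 7.56, 7.89, 7.89 and 7.49 in sh14, and 7.45, 7.26, 7.43 and 7.52 in sh133, with the lines overlapping. It was higher in sh14 than in sh133 by 0.56 ± 0.13 (adjusted p = 0.0188), and by 0.29 without the run term (adjusted p = 0.131). That call was also lost without sh14 or sh133 at 6 or 12 h. Acly, which makes the acetyl units, and Elovl6, the elongase, were also highest in scr at 6 h, and Elovl6 was lowest of the 12 arrays in sh14 at 22 h (5.81). Over the branch, the 6 h minus 1 h difference in scr had a median of 0.43, with 3 of 8 at least 1.5-fold higher. The sh133 array at 6 h was the lowest of the 12 for 5 of the 8 fatty acid enzymes (4.67% of all genes).

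With the run term, 12 of the 31 members were called in sh14 against sh133 (14.6% of all genes), more than in either hairpin line against scr. Without it 7 were called here (24.7% of all genes), 7 for sh14 against scr (23.7%) and 4 for sh133 against scr (12.6%), each near the share of all genes. Of the 31, 10 were higher in sh14 (7.54% of all genes) and 2 were lower (7.11%). The higher ones were the sterol enzymes Dhcr7, Fdft1 and Tm7sf2, the regulators Scap and Srebf1, and the fatty acid enzymes Acaca, Fads1, Fasn, Scd1 and Scd2, and the lower ones were Idi1 and Insig1. Tm7sf2 had the largest positive value, 1.59 ± 0.12 (3.00-fold; adjusted p = 3.64e-05). Fdft1, the squalene synthase, was 0.65 ± 0.18 higher (adjusted p = 0.0388), and Acaca, the acetyl-CoA carboxylase, 0.50 ± 0.13 (adjusted p = 0.0315). Leaving out 1 array lost the Fdft1 call for 7 arrays and the Acaca call for 5, among them sh14 and sh133 at 6 and 12 h. The median over the 31 was 0.44, against 0.001 over all genes, and it was 0.10 without the run term.

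This difference was not the same at each time. Within run 1, the sterol enzymes of sh14 exceeded those of sh133 by a median of 0.55 at 6 h and 0.41 at 12 h, and the fatty acid enzymes by 0.62 and 0.49. Across runs the sterol medians were 0.07 at 1 h and -0.55 at 22 h, when 8 of 17 were at least 1.5-fold lower in sh14 (5.86% of all genes). Without the run term 7 of the 12 calls remained (Dhcr7, Fads1, Idi1, Insig1, Scap, Srebf1 and Tm7sf2) and no other member was added. Leaving out 1 array gave 4 calls without sh133 at 6 h, 7 without sh133 at 12 h or sh14 at 6 or 12 h, and 20 without sh14 at 22 h. Of the 12673 genes tested, 1856 were called in the full fit, 413 without sh133 at 6 h and 390 without sh133 at 12 h. Without sh14 at 6, 12 and 22 h in turn, 1072, 900 and 1954 were called.

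Against scr, the matched medians of the sterol enzymes in sh14 were 0.20, -0.30, 0.12 and -0.57 at 1, 6, 12 and 22 h, all between runs. With the run term the branch median for sh14 against scr was 0.42, and without it -0.17, so no direction of the branch held in both. In sh133 the medians within run 2 were 0.17 at 1 h and -0.09 at 22 h. Between runs they were -0.69 at 6 h, with 15 of 17 at least 1.5-fold lower (3.54% of all genes), and -0.32 at 12 h, with 3 of 17 (3.79%). The branch median was lower in sh133 than in scr by over 0.3 at 6 and 12 h, the 2 times at which the arrays carry different dates. At these times the branch was also lower in sh133 than in sh14 within run 1, as given above. The date and a time course of sh133's own cannot be told apart.

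**Figure D4:**
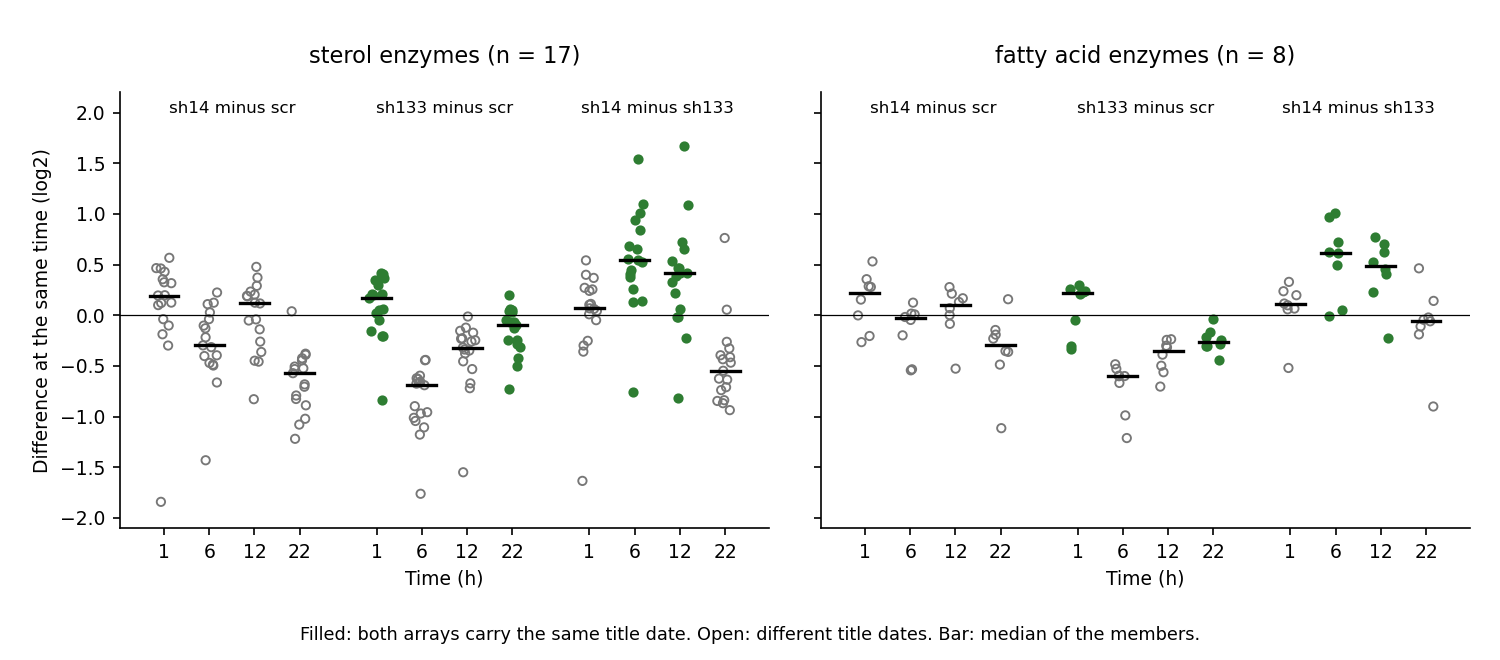
Log2 difference between lines at the same hour (vertical axis) for each of the 17 sterol and 8 fatty acid enzymes, by pair of lines and hour (horizontal axis), with filled points where both arrays carry the same title date, open points where they do not, and bars at the median. The filled sterol medians are 0.17 and -0.09 for sh133 minus scr and 0.55 and 0.41 for sh14 minus sh133, and the lowest open sterol medians are -0.69 and -0.57.

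Genes next to these pathways were read from 2 lists, of 34 other genes of lipid synthesis (31 tested) and 15 genes of sterol export, sensing and storage (11 tested). In sh14 against scr, 1 of the 31 and 3 of the 11 were higher (1.5% of all genes) and none was lower (1.56%). The model without run called 7 of the 31 and 5 of the 11 (23.7% of all genes), 4 of the 31 lower. Abca1, which exports cholesterol to lipoproteins and is a known target of the sterol-sensing liver X receptors, was at 4.05, 2.04, 3.80 and 3.86 in scr, 5.96, 5.66, 6.19 and 7.10 in sh14, and 3.83, 3.17, 4.14 and 4.17 in sh133. All sh14 arrays were above all others. It was higher in sh14 than in scr by 2.32 ± 0.45 (adjusted p = 0.0239) and than in sh133 by 2.16 ± 0.30 (adjusted p = 0.00134). The call against scr was lost in 7 of the 12 fits that left out 1 array, and the call against sh133 in none.

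Mylip, a ubiquitin ligase and another liver X receptor target, was at 4.92, 4.72, 5.08 and 5.19 in scr, 6.00, 6.08, 6.28 and 7.16 in sh14, and 5.38, 5.29, 5.67 and 6.00 in sh133. Both hairpin lines were above every scr array. It was 1.33 ± 0.26 higher in sh14 than in scr (adjusted p = 0.0239), and it was the 1 gene of either list called for both hairpins together (0.95 ± 0.20; adjusted p = 0.0417). Lpcat3, which remodels phospholipids, was higher in sh14 by 0.86 ± 0.18 (adjusted p = 0.0319) and Lpin1, a phosphatidate phosphatase, by 1.33 ± 0.18 (adjusted p = 0.00439). Lpin1 without the run term was 0.46 higher and not called (adjusted p = 0.0739), although the call with the term was kept in all 12 fits that left out 1 array. In those fits the calls against scr were lost 6 times for Mylip and 9 times for Lpcat3, and the Mylip call for both hairpins 9 times.

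Abcg1, a cholesterol exporter, was at 6.56, 5.05, 5.80 and 6.31 in scr, 6.84, 6.42, 7.02 and 8.11 in sh14, and 6.38, 5.05, 5.67 and 6.60 in sh133. It was higher in sh14 than in sh133 by 1.30 ± 0.25 (adjusted p = 0.00799) and it fell from 1 h to 6 h by 1.01 ± 0.25 in the model with run (adjusted p = 0.0474). The former call was lost without sh133 at 6 or 12 h, and the latter in 9 of the 12 fits that left out 1 array. The 6 h arrays were the lowest of each line, as for Srebf1. Of the 11 export genes, 5 were called higher in sh14 than in sh133 (7.54% of all genes) and none lower (7.11%), and the sh14 array at 22 h was the highest of the 12 for 5 of them (11.6% of all genes). In the same array the sterol enzymes were mostly at their lowest.

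Me1, the malic enzyme that supplies reducing power for fatty acid synthesis, was at 4.45, 5.55, 5.38 and 4.80 in scr, 4.30, 4.65, 5.03 and 3.51 in sh14, and 3.63, 3.49, 3.51 and 2.78 in sh133. Its sh133 arrays were all below its scr arrays, by -1.39 ± 0.23 in the model (adjusted p = 0.00884). Gpam, the first acyltransferase of triglyceride synthesis, was lower in sh133 than in scr as well, with -0.63 ± 0.15 (adjusted p = 0.0447). Leaving out 1 array lost the Gpam call 10 times of 12 and the Me1 call once, without sh133 at 22 h. These were the 2 calls in sh133 against scr among the 31 other lipid synthesis genes, with none among the 11 export genes (4.91% of all genes), and without the run term there were 9 and 3 (12.6%). In sh14 against sh133, 11 of the 31 other lipid synthesis genes were called (14.6% of all genes), 9 higher (7.54%) and 2 lower (7.11%), led by Lpin1 (1.43 ± 0.12; adjusted p = 7.74e-05) and Me1 (1.32 ± 0.23; adjusted p = 0.00491), whose call was lost without sh133 at 6 or 12 h. The model without run called 10 (24.7% of all genes).

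**Figure D5:**
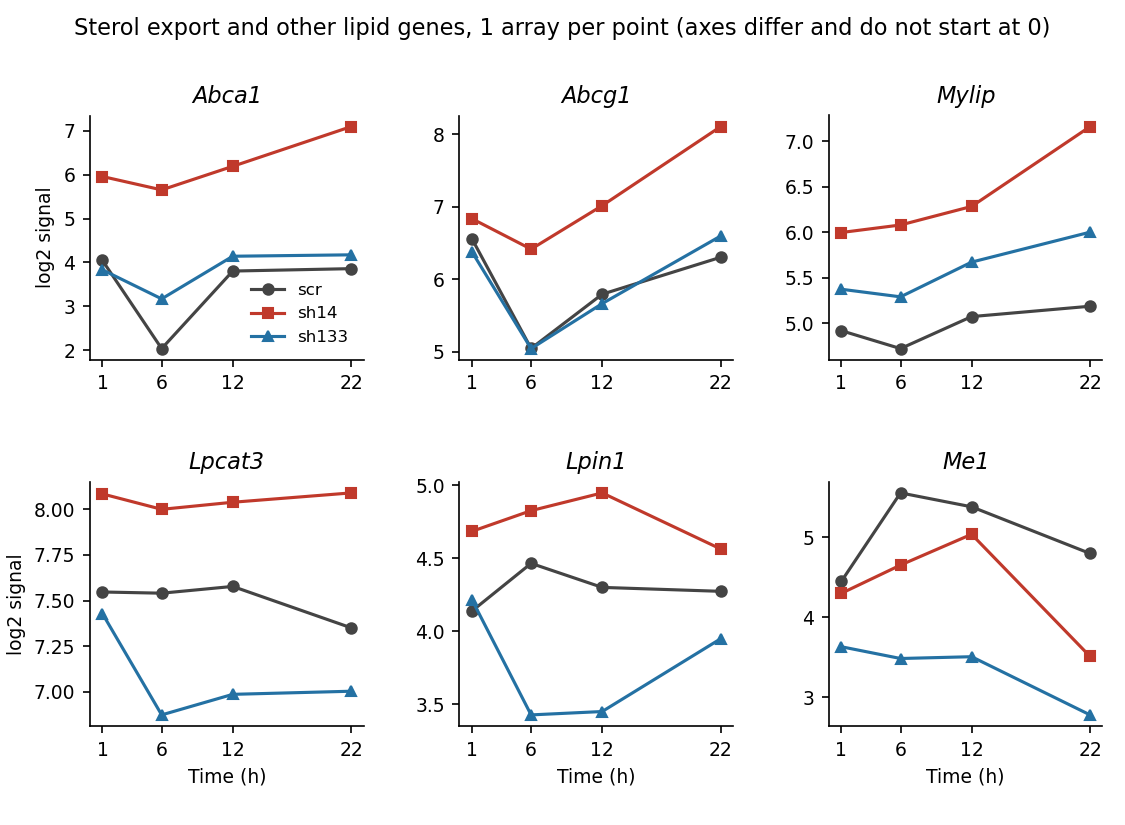
Log2 signal (vertical axis, scaled for each gene) against hours (horizontal axis) for Abca1, Abcg1, Mylip, Lpcat3, Lpin1 and Me1 in scr, sh14 and sh133, with 1 array per point and no error bar. The sh14 points of Abca1 lie between 5.66 and 7.10, above every point of the other lines, and the sh133 points of Me1 lie between 2.78 and 3.63, below every scr point.

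Genes of these lists also passed the test over time. From 1 h to 22 h, Hsd17b12, which works in fatty acid elongation, fell by 1.34 ± 0.12 (adjusted p = 7.45e-05), Elovl5, an elongase of polyunsaturated fatty acids, fell by 0.69 ± 0.09 (adjusted p = 0.00072), and Hacd2, a dehydratase of the same cycle, fell by 0.57 ± 0.11 (adjusted p = 0.00706). Mylip rose by 0.69 ± 0.15 (adjusted p = 0.0107), a call lost without sh133 at 1 or 22 h. In all, 5 of 31 other lipid synthesis genes and 4 of 11 export genes were called for that span (18.1% of all genes), 1 and 2 of them higher. From 1 h to 6 h, Erg28, a scaffold of the sterol demethylation complex, rose by 0.71 ± 0.17 (adjusted p = 0.0382) and Elovl5 fell by 0.60 ± 0.10 (adjusted p = 0.0122). Erg28 was 0.54 higher and not called without the run term (adjusted p = 0.0901) and lost its call in 9 of the 12 fits that left out 1 array, and Elovl5 lost its call without scr at 6 h. From 12 h to 22 h, Me1 (-1.14) and Hsd17b12 (-0.73) were the 2 genes of these lists past the threshold (1.25% of all genes). Neither was called without the run term (1.34% of all genes), and each call was lost in 9 of the 12 fits that left out 1 array.

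Different probe sets of a member mostly gave the same direction. For 20 members with 36 further probe sets above the filter, the sign of the mean matched difference was that of the brightest in 29 of 36 for sh14 minus scr, 32 for sh133 minus scr and 29 for sh14 minus sh133. It was the same in 31 of 36 for the scr step from 1 to 6 h and in 32 of 36 for the sh14 step from 12 to 22 h. The agreement was lowest for the sh14 step from 1 to 6 h, at 24 of 36, and it was 29 of 36 for the same step in sh133.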

How the data were processed

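The authors deposited log2 signals per probe set for 12 arrays. The submitters' processing notes name RMA, without a version in the sources used here. RMA removes background, gives all arrays one distribution and summarises each set's probes, so a difference in total RNA between arrays cannot be read from them. The values ran from 0.04 to 13.1, with array medians of 1.84 to 1.92. Gene names came from GEO's platform annotation, with 1 gene for 34958 of 45101, several for 932 and none for 9211. The brightest probe set stood for each of 18194 genes, and genes under the 40th percentile of probe set means were left out. Precision is limited by how few arrays there are.

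The model was fitted in limma 3.58.1 (R 4.3.3, and Python 3.11.15 for tables) with line, time as a factor and array run, over all 12 arrays. An adjusted p is from that model unless another is named, with Benjamini-Hochberg adjustment over 12673 genes and a threshold of 0.05. It left 5 residual degrees of freedom, against 4 for knockdown by time and 3 for the slopes of both hairpin lines. A fold of 1.5 is 0.58 on the log2 scale. On simulated data, sh14 against sh133 recovered 85.0% of 2-fold and 98.0% of 4-fold changes, with 4.68% false calls. Replicate numbers within a line follow deposit order and pair nothing. Alternatives were the run term, the filter, averaged probe sets, quantile scaling, trend and robust moderation, and leaving out each array. Values on every array are given for members past the threshold, up to 4 per comparison by size of change, and always for Insig1, Hmgcs1, Sqle, Srebf1, Srebf2, Fasn, Scd1 and Scd2, and of the other lipid genes up to 4 per comparison are named. The members and lists were chosen with earlier results of these data known.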

Additional observations from a re-analysis of the deposited data

Results flagged for a closer look

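On 2 of 93 sets of 4 arrays (31 members in 3 lines), 1 array stood apart from the other 3 by Dixon's ratio, the gap to the nearest array over the whole range, at its 95% critical value. Both were sterol enzymes in sh14 at 22 h: Lss with a ratio of 0.903 and Cyp51 with 0.896. Chance flags about 5% of sets of 4 independent draws from 1 distribution. Each set here holds the 4 times of a line, and the genes share arrays, so that share need not hold.

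The 2 hairpin lines differed from each other for 12 of the 31 members (14.6% of all genes), by the limma test of sh14 against sh133 at an adjusted p under 0.05. The difference was positive for Acaca (0.50), Dhcr7 (1.00), Fads1 (0.73), Fasn (0.56), Fdft1 (0.65), Scap (0.51), Scd1 (0.80), Scd2 (0.76), Srebf1 (0.92) and Tm7sf2 (1.59) on the log2 scale. It was negative for Idi1 (-0.81) and Insig1 (-2.31). Acaca, Fasn, Fdft1, Scd1 and Scd2 were not called without the run term.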

How the results depend on the processing

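Without the array run term, the members called numbered 6 of 31 for both hairpins against scr (16.2% of all genes), 7 for sh14 against scr (23.7%), 4 for sh133 against scr (12.6%), 7 for sh14 against sh133 (24.7%) and 1 for 6 h against 1 h (7.46%). Tm7sf2 in sh14 against scr then reversed to -0.0902, and Insig1 in sh133 against scr, not called in either fit, to -0.0467. Averaged probe sets gave 1 call for 22 h against 1 h, where 2167 of 11912 genes were called. Moderation with trend and robust options gave 1 for 22 h against 1 h, 5 for 6 h against 1 h and 1 for 22 h against 12 h. Of all 12673 genes it called 2408, 655 and 217 in these comparisons. The cause was not tested. Leaving out each array in turn gave 4 to 20 calls for sh14 against sh133, 0 to 5 for sh14 against scr, 0 to 8 for 6 h against 1 h, 0 to 2 for 22 h against 1 h and for 22 h against 12 h, and 0 to 1 for sh133 against scr, both hairpins against scr and knockdown by time, with 0 throughout for 12 h against 6 h and the slopes of the hairpin lines. Over all 12673 genes, these fits gave 390 to 2206 calls for sh14 against sh133 and 87 to 555 for sh14 against scr. They gave 97 to 730 for 6 h against 1 h, 1146 to 2273 for 22 h against 1 h and 1 to 212 for 22 h against 12 h. The count of members for sh14 against scr was 5 without sh14 at 22 h (533 of all genes). It was 0 without sh133 at 1, 6 or 12 h (119, 96 and 87 of all genes). Of 378 single-gene values under an alternative, for 21 gene and comparison pairs, 293 kept their direction and side of the threshold, 79 kept the direction and lost the call, 1 gained it (Idi1 in sh14 against scr without the run term, -1.17) and 5 reversed. Of these, 3 were Idi1 in sh133 against scr, never called, which ranged from -0.247 to 0.174 when 1 array was left out. No paired analysis was possible because the labels give no replicate numbers, and the numbers used follow deposit order; time, which matches arrays across lines, is a factor of the model. With 1 array per line and time, no step within a line has an error of its own, and the 0.05 threshold lies between the Idi1 values of close settings.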
